A study of Mus musculus with 8 samples.

Results

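The T cell receptor complex and its signalling genes were taken as 10 genes found by symbol in the count tables, Cd3d, Cd3e, Cd3g, Cd4, Cd8a, Cd8b1, Lck, Zap70, Cd5 and Il7r. They are 10 of the 22756 genes counted in each library. All 10 were among the 14140 genes kept for testing, and all 10 also had a mean count of at least 200. The rule names them by symbol.

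RNA-Seq libraries were prepared from cells of the distal lung of adult mice, mainly of the C57BL/6 strain. There were 8 libraries, 1 from males and 1 from females in each of 4 groups, namely α7G control, α7G CS, α7E260A:G control and α7E260A:G CS. Mice of the CS groups breathed side-stream cigarette smoke (CS) on 5 days per week over 4 months. After lavage of the lungs, CD45+ cells were removed with antibody-coated magnetic beads, and the labels describe what was left as nearly all epCAM+ cells. The α7G genotype is Chrna7-IRES-tauGFP and the α7E260A:G genotype is Chrna7-E260A-IRES-tauGFP, so both lines carry the tauGFP reporter in Chrna7, the gene of the nicotinic α7 receptor, and they differ by the point mutation. The mutation and the reporter are in the gene itself, and so in every cell type that uses it. How many mice went into a library is not given in the sources used here, so p-values measure the spread between libraries. As each group held 1 male and 1 female library, that spread includes any difference between the sexes.

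The T cell receptor recognises a peptide held by a histocompatibility molecule and has no signalling tail of its own. It signals through the CD3 chains and the zeta chain, which the kinase Lck, brought in by the coreceptors CD4 or CD8, phosphorylates so that the kinase ZAP-70 can bind. In the lung T cells lie in the interstitium and along the airways, and all of them carry CD45 on the surface.

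Although CD45+ cells had been depleted, all 10 transcripts were measured in all 8 libraries. Together they took between 5230 and 11015 counts per library, or 0.0652% to 0.112% of the total CDS counts (reads counted on coding sequence). The lowest count of any of them was 219, for Cd5 in the male α7E260A:G CS library, and its 95% exact Poisson interval ran from 23.8 to 31.2 RPM (reads scaled by the library's total count), which covers counting error only. Total CDS counts lay between 8020726 and 10944100. Ptprc, the gene of CD45 itself, lay between 771 and 1935 RPM. The summed level of 7 epithelial markers (Epcam, Cdh1, Krt8, Krt18, Krt19, Sftpc and Scgb1a1) was 14056 to 79809 RPM, and that of 8 pan-leukocyte markers was 5870 to 7304 RPM, so transcripts of leukocytes were present in every library beside those of the labelled epithelium. In bulk RNA, fewer T cells and less RNA per T cell cannot be told apart.

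Cd3d, Cd3e and Cd3g lie beside each other on chromosome 9 (mm9), and the 250 bases upstream of each start are shown because Cd3d and Cd3g, which are read away from each other, had the most alike levels of all pairs. Cd3d (ENSMUSG00000032094.7) runs from 44789876 to 44795135 on the plus strand, Cd3g (ENSMUSG00000002033.7) from 44777655 to 44788514 on the minus strand, and Cd3e (ENSMUSG00000032093.6) from 44806826 to 44817673 on the minus strand. The annotated starts of Cd3g and Cd3d are 1362 bases apart. The sequences are from RefSeq (table build GRCm38.p6), and each was found exactly 1 time on chromosome 9 of mm9, for Cd3d at chr9:44789619-44789868 (plus strand), for Cd3g at chr9:44788515-44788764 (minus strand) and for Cd3e at chr9:44817695-44817944 (minus strand). Each is written from 5′ to 3′ on the strand of its gene. Capitals mark matches to the motifs searched on both strands.
Cd3d: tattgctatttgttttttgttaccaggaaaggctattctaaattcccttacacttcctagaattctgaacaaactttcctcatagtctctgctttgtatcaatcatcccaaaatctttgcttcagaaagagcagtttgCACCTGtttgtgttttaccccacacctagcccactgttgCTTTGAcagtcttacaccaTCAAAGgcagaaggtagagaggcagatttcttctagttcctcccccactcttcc
Cd3g: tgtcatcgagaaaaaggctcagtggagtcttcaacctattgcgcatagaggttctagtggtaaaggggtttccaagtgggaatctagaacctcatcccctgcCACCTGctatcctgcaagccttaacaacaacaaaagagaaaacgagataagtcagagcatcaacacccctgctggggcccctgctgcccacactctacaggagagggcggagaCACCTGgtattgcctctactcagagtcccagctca
Cd3e: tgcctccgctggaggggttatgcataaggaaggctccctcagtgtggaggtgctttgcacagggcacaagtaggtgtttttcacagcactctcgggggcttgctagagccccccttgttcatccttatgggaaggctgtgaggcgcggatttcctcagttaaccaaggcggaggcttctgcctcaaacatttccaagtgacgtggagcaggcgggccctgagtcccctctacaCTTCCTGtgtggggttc
The motifs were RUNX (TGTGGT), ETS (CAGGAAG), TCF (CTTTGA), E-box (CACCTG) and the TATA box (TATAAA). The Cd3d window held 1 E-box match and 2 TCF matches, the second of them on the other strand. The Cd3g window held 2 E-box matches, and the Cd3e window held 1 ETS match on the other strand. Matches did not overlap. Of 32851 promoter windows of this length in the table, 17.2% held the E-box letters, 13.8% the TCF letters, 10.8% the ETS letters, 14.045% the RUNX letters and 12.4% the TATA letters. A window was found for 8 of the 10 genes. A match describes letters and does not show that a factor binds.

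Per length of coding sequence, the CD3 chains had the highest means of the 10 genes (Cd3d, Cd3g and Cd3e being the delta, gamma and epsilon chains). For Cd3e this did not hold in every library. In the male α7E260A:G control it was at 86.8 RPM per kb and Lck at 104. Levels in RPM per kb of coding length averaged 286 ± 127 for Cd3d, 247 ± 93.2 for Cd3g and 120 ± 29.6 for Cd3e (SD, n = 8 libraries). Cd8b1, the beta chain of the coreceptor CD8, followed with 115 ± 32.1 RPM per kb, then Lck with 103 ± 13.9 and Il7r, the receptor chain for the survival cytokine IL-7, with 80.1 ± 12.02. The lowest were Cd8a (the alpha chain of CD8) with 49.3 ± 8.58, Cd4 with 34.5 ± 7.77, Cd5, an inhibitory receptor of T cells, with 26.2 ± 5.55, and Zap70 with 20.9 ± 3.94. Neighbours in this order differed by less than the larger of their SDs, except Cd3g and Cd3e, Lck and Il7r, Il7r and Cd8a, Cd8a and Cd4, and Cd4 and Cd5. The level of Cd3d per kb was 2.32 ± 0.722 times that of Cd3e, with a range of 1.5 to 3.73. Cd3g and Cd3d moved together, and the ratio of Cd3d to Cd3g per kb was 1.13 ± 0.107 with a range of 0.986 to 1.29.

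**Figure D1:**
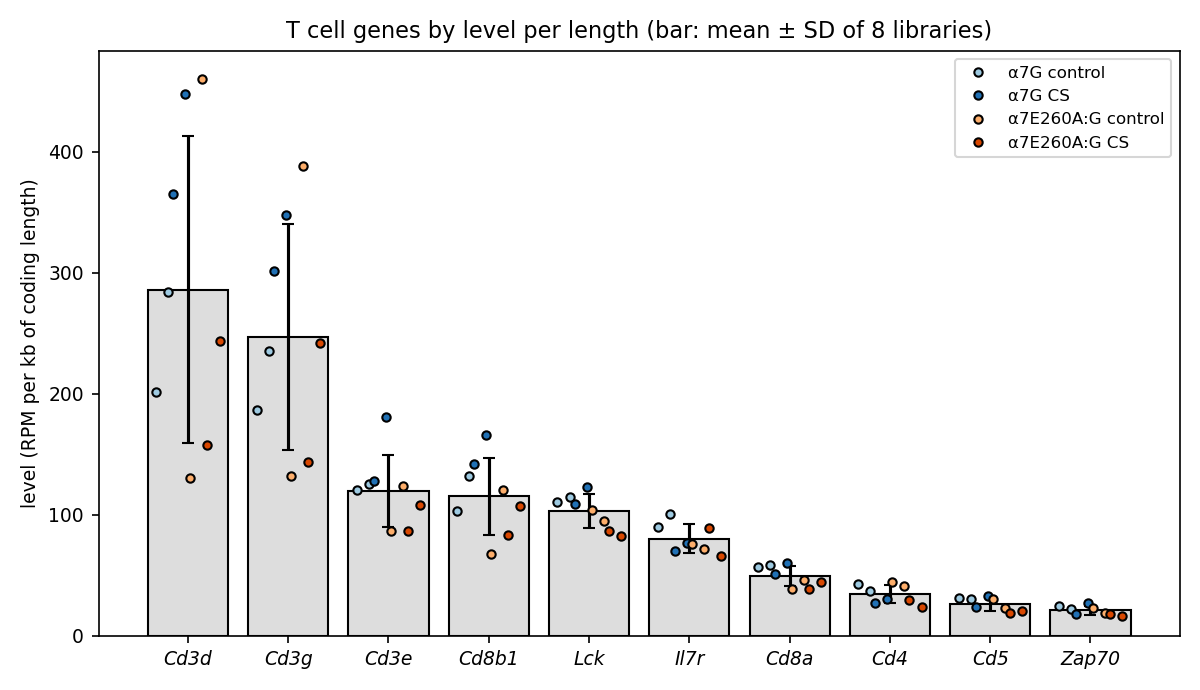
Level of each of the 10 genes in RPM per kb of coding length (vertical axis), in order of the mean. Bars are means of 8 libraries, error bars are SD, and points are libraries coloured by group. The points of Cd3d run from 130 to 461 RPM per kb and those of Zap70 from 16.2 to 27.3.

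The 10 genes did not vary as 1 block. Over the 8 libraries, Pearson's r of log2(RPM + 0.5) was 0.991 between Cd3d and Cd3g, 0.930 between Cd3e and Cd8b1 and 0.910 between Cd3d and Cd8b1. Another set joined the kinases with Cd5, with r of 0.928 between Zap70 and Cd5, 0.877 between Lck and Cd5 and 0.836 between Lck and Zap70. Cd4 had r of 0.595 to Cd5, 0.556 to Zap70 and 0.369 to Lck, and of -0.358 to Cd8b1 and -0.235 to Cd3d. It had r of 0.426 to Il7r, and Il7r had r of -0.402 to Cd3g. These are descriptions over 8 libraries that share groups, scaling and RNA preparation, and 9 of the 45 pairs had a negative r. The genes of the first set have coding lengths of 519 to 639 bases, and Lck, Zap70 and Cd5 have 1482 to 1991 bases, a difference taken up with the length slopes of the libraries. By correlation with the mean standardized level of the 10 genes, Cd8a (r = 0.914), Lck (0.884) and Cd3e (0.870) were the most typical, and Il7r (0.292) and Cd4 (0.297) the least. The 5 other genes most like this mean were Tubb2b (r = 0.991), Tnfrsf9 (0.980), Cenpa (0.962), Hmgb2 (0.961) and Grpel2 (0.947), each at 31.1 RPM or less in every library.

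**Figure D2:**
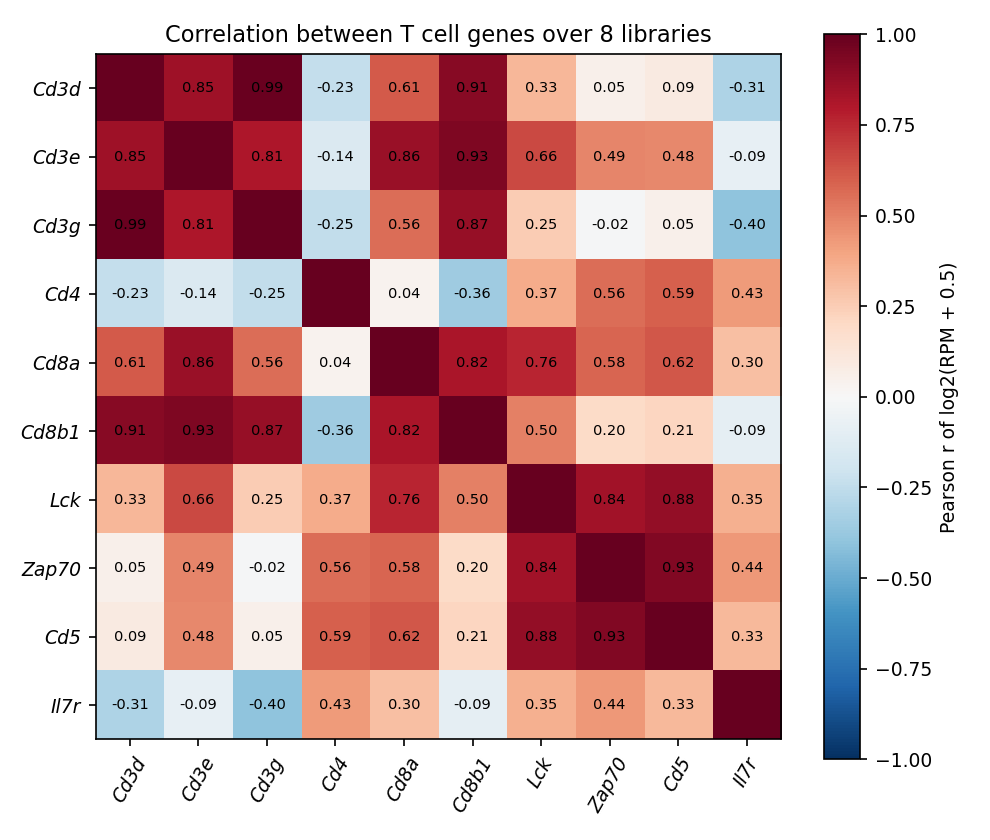
Pearson's r between the 10 genes over the 8 libraries, from log2(RPM + 0.5), with the gene on both axes and r as colour and number. Cd3d, Cd3e, Cd3g and Cd8b1 are joined by r of 0.812 or more, and Lck, Zap70 and Cd5 by 0.836 or more.

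The first comparison asked whether CS changed these transcripts in α7G mice. No gene of the 10 passed the test (edgeR quasi-likelihood test, Benjamini-Hochberg adjusted p under 0.05, background 0% of all genes), and the lowest adjusted p was 0.646. At an unadjusted p under 0.05 the number was also 0 of 10, against 6.68% of all genes (945 of 14140), and DESeq2 called 0 of the 10 and 18 of all genes. The median log2 fold-change of the 10 was 0.13, that of all genes tested was -0.0013, and 8 of the 10 were above 0. Without the female α7G CS library the median was -0.00052 with 5 of the 10 above 0, and without the male one it was 0.30.

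Among the CD3 chains, Cd3d was at 104 RPM in the male and 147 RPM in the female α7G control, and at 190 and 232 RPM in the male and female α7G CS libraries. Both CS libraries lay above both controls, and the fitted log2 fold-change was 0.88 ± 0.63 (SE, edgeR adjusted p = 0.654). Cd3g was at 102 and 129 RPM in the controls and at 165 and 190 RPM after CS, again without overlap (log2 fold-change 0.75 ± 0.58, edgeR adjusted p = 0.665). Cd3e had 68.2 and 71.0 RPM in the controls and 72.6 and 102 RPM after CS (0.47 ± 0.35, edgeR adjusted p = 0.662), so that the male CS library was close to the controls and the female CS library held the highest Cd3e of all 8. These SE take in the spread of all 4 groups, and the 2 α7E260A:G controls lay far apart. In a fit of the 4 α7G libraries alone, the log2 fold-change was 0.86 ± 0.22 for Cd3d (edgeR adjusted p = 0.0523) and 0.74 ± 0.20 for Cd3g (adjusted p = 0.0573), while 904 of all genes passed. At an unadjusted p under 0.05 that fit gave 3 of the 10 and 3552 of all 14140 genes. It had no length offset, and the length slopes of the α7G libraries, given below, were above 0 in both controls and below 0 in both CS libraries.

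Of the coreceptors, Cd8b1 resembled the CD3 chains, with 65.8 and 84.5 RPM in the male and female control and 90.8 and 106 RPM after CS (log2 fold-change 0.52 ± 0.41, edgeR adjusted p = 0.668). Cd8a, which pairs with it on the cell, had 41.98 and 43.4 RPM in the controls and 37.9 and 44.3 RPM after CS, and these overlapped (0.08 ± 0.29). Cd4 pointed the other way, with 58.9 and 50.3 RPM in the controls and 36.5 and 42.1 RPM after CS, both below both controls (-0.34 ± 0.23, edgeR adjusted p = 0.646). The ratio of Cd4 to Cd8a in RPM was 1.40 and 1.16 in the male and female α7G controls and 0.963 and 0.949 after CS. With the dependence of each library on coding length divided out, as described below, both genes were lower after CS. Cd4 was then at 54.0 and 47.4 RPM in the controls and at 35.9 and 42.2 RPM after CS. Cd8a was then at 44.3 and 42.7 RPM and at 32.8 and 40.2 RPM. The ratio was not recomputed on that scale.

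For the kinases, Lck was at 172 and 179 RPM in the controls and at 170 and 191 RPM after CS (log2 fold-change 0.18 ± 0.22). Zap70 was at 49.4 and 44.3 RPM in the controls and at 35.4 and 54.4 RPM after CS (0.08 ± 0.27), the male CS library being below both controls and the female above both. Cd5 showed the same split, with 46.4 and 44.4 RPM in the controls and 34.6 and 48.5 RPM after CS (0.01 ± 0.27). Il7r was below both controls in both CS libraries, at 96.8 and 105 RPM against 124 and 139 RPM in the controls (-0.25 ± 0.23, edgeR adjusted p = 0.712). In this genotype and in RPM, both CS libraries thus lay above both controls for 4 of the 10 genes (Cd3d, Cd3e, Cd3g and Cd8b1), an order that 21.3% of all genes showed, and below both for 2 (Cd4 and Il7r), against 36.1% of all genes. These lists depend on the scale. With coding length divided out, Cd3d, Cd3g, Cd4 and Il7r kept their order, but Cd3e and Cd8b1 overlapped. Cd8b1 was then at 71.5 and 83.8 RPM in the controls and at 76.3 and 94.1 RPM after CS. Both CS libraries were then also above both controls for Lck and below both for Cd8a. The shares of all genes were not computed on that scale.

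**Figure D3:**
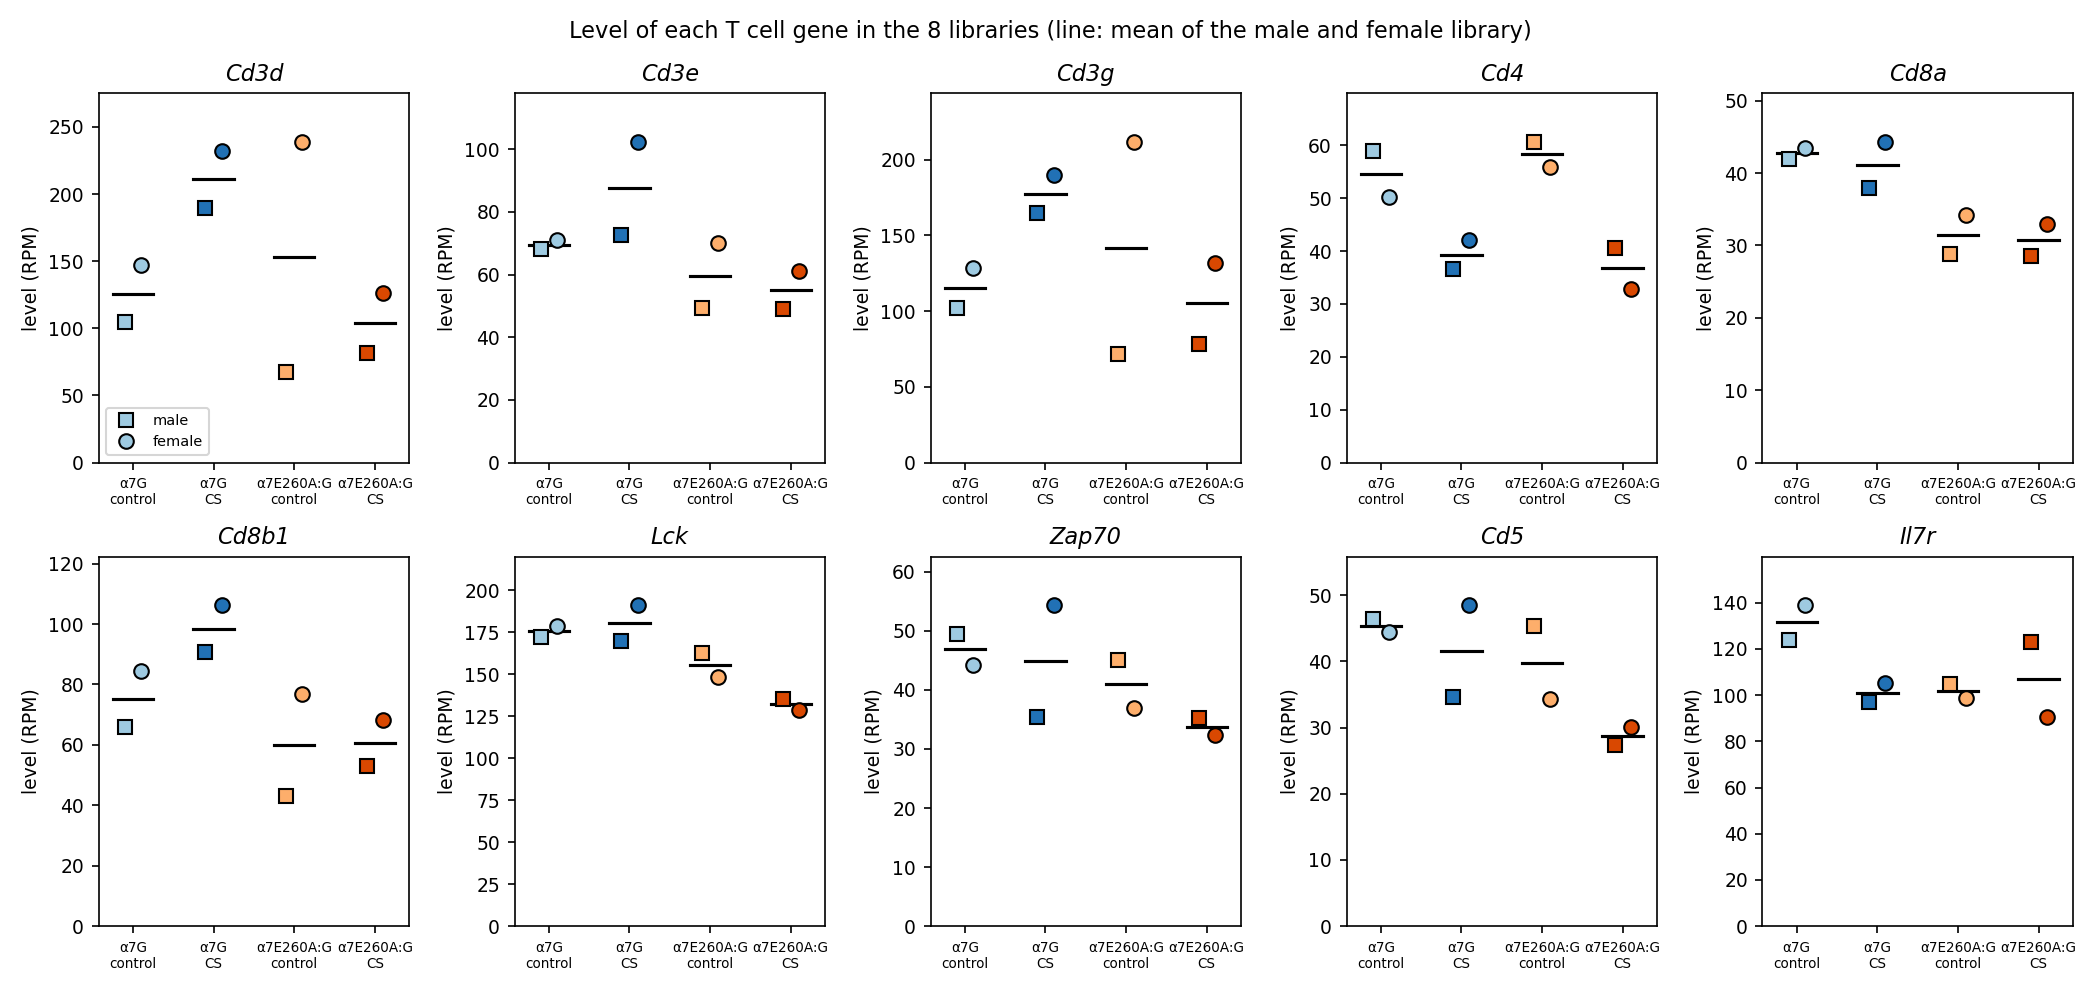
Level in RPM (vertical axis, from 0) of each of the 10 genes in the 4 groups, squares for male and circles for female libraries, with a line at the mean of both. Cd4 lies at 32.9 to 42.1 RPM in the 4 CS libraries and at 50.3 to 60.7 RPM in the 4 controls. For Cd3d the 2 α7E260A:G controls lie at 67.5 and 239 RPM, which span all other libraries.

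The second comparison asked the same of α7E260A:G mice, and again none of the 10 passed (edgeR, 1 of all genes called, background 0.00707%). The number at an unadjusted p under 0.05 was 1 of 10, Cd4, against 3.08% of all genes (436). DESeq2 called 0 of the 10 and 34 of all genes. All 10 log2 fold-changes were below 0, with a median of -0.32 against -0.019 for all genes tested. The 12 NK cell markers, of cells that use several of the same genes, were also all below 0 in this comparison (median -0.65, 2 of 12 with an unadjusted p under 0.05, none passing), and their part was not tested. That direction rests in part on the female α7E260A:G control: without it 6 of the 10 were above 0 and the median was 0.19.

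Cd4 was at 60.7 and 55.9 RPM in the male and female α7E260A:G controls and at 40.6 and 32.9 RPM after CS. Both CS libraries were below both controls, the ratio was 0.670 in males and 0.588 in females, and the log2 fold-change was -0.74 ± 0.23 (edgeR unadjusted p = 0.0122, adjusted p = 1). Cd5 was at 45.3 and 34.3 RPM in the controls and 27.3 and 30.1 RPM after CS, also without overlap (-0.51 ± 0.27, edgeR unadjusted p = 0.0926). Lck was at 163 and 148 RPM in the controls and at 135 and 129 RPM after CS (-0.30 ± 0.22), and Zap70 was at 45.1 and 37.0 RPM and then at 35.3 and 32.3 RPM (-0.34 ± 0.27). For these 4 genes every CS library was thus below every control of the genotype in RPM, an order of 2 against 2 libraries that 5.51% of all genes showed. With coding length divided out these 4 genes kept the order, and Cd3e and Cd8a then had it too. No gene of the 10 had both CS libraries above both controls, against 15.6% of all genes.

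In RPM the CD3 chains gave no such order, because the controls differed. Cd3d was at 67.5 RPM in the male and 239 RPM in the female α7E260A:G control, and at 81.7 and 126 RPM after CS. In males the ratio of CS to control was 1.21 and in females 0.529. The log2 fold-change of Cd3d was -0.70 ± 0.63 with all libraries, 0.79 without the female control and -1.41 without the male control. Cd3g was alike, at 72.0 and 212 RPM in the controls and 78.3 and 132 RPM after CS (-0.56 ± 0.58, and 0.71 without the female control). Cd3e was at 49.2 and 70.0 RPM and then at 49.0 and 61.3 RPM (-0.20 ± 0.35).

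Cd8b1 was at 43.0 and 76.9 RPM in the controls and 53.1 and 68.2 RPM after CS (-0.09 ± 0.41, and 0.65 without the female control). Cd8a was at 28.8 and 34.2 RPM and then at 28.6 and 33.0 RPM (-0.11 ± 0.29). Il7r was at 105 and 98.9 RPM in the controls and at 123 and 90.7 RPM after CS (-0.01 ± 0.23).

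**Figure D4:**
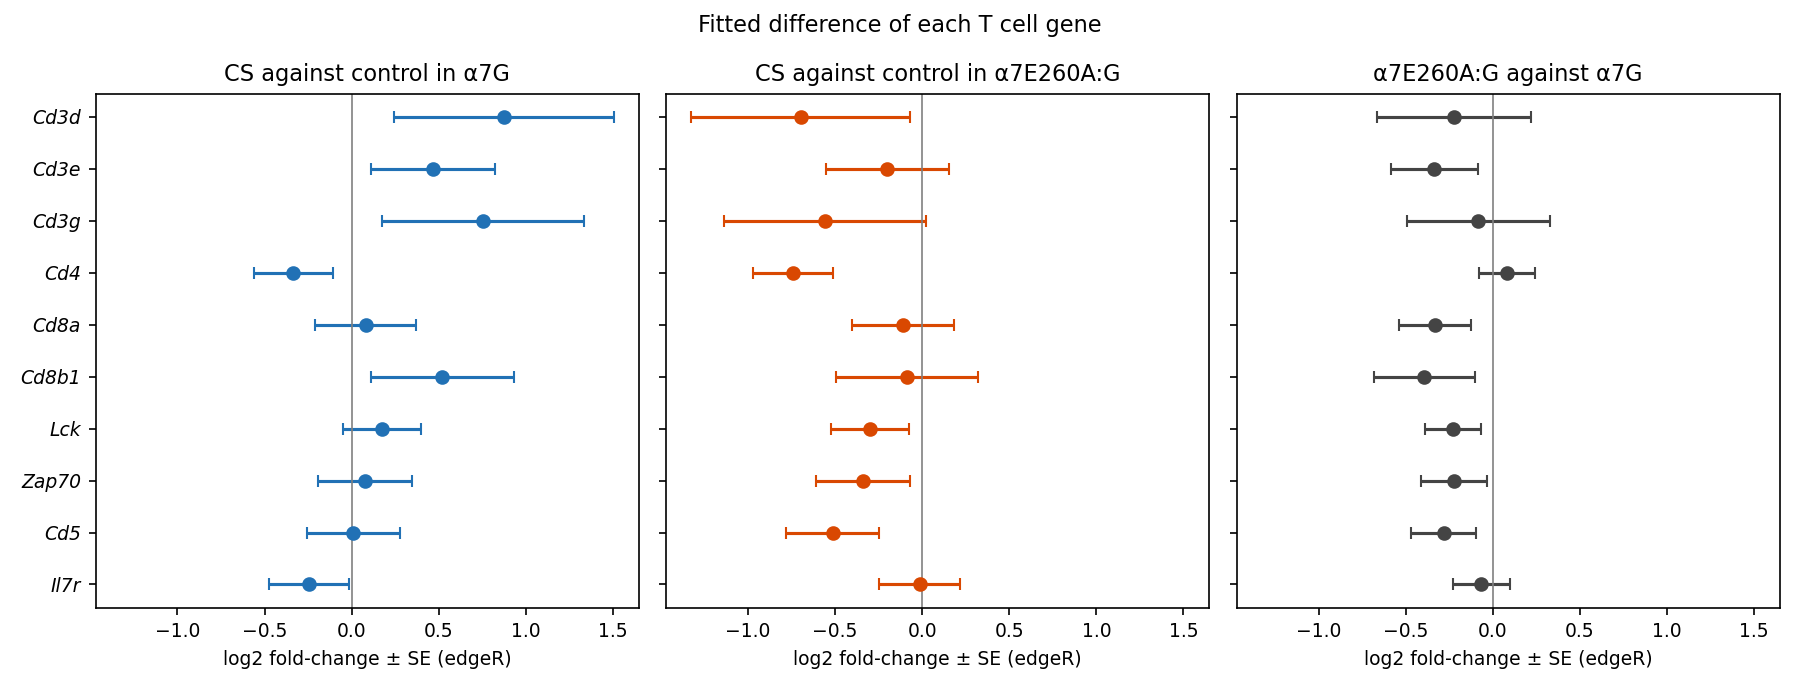
Log2 fold-change ± SE (horizontal axis) of the 10 genes in 3 comparisons, from the edgeR fit of the 4 groups. The bars of Cd3d and Cd3g are the widest, with SE of 0.63 and 0.58 in α7G, and none of the 10 genes passed the test in any panel.

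Whether the response to CS differed between the genotypes was tested as the difference of both log2 fold-changes. It passed for 0 of the 10 genes and for 0 of all genes (edgeR, background 0%). At an unadjusted p under 0.05 there were 0 of 10, against 2.19% of all genes (310), and DESeq2 called 0 of the 10 and 7 of all genes. The difference (α7E260A:G minus α7G) was -1.57 ± 0.89 for Cd3d, -1.31 ± 0.82 for Cd3g, -0.67 ± 0.50 for Cd3e and -0.61 ± 0.58 for Cd8b1. Without the female α7E260A:G control those of Cd3d and Cd3g were -0.07 and -0.02, and without the male one -2.28 and -1.97. The SE are wide enough that differences of this size were not detectable here. For Cd4 the difference was -0.41 ± 0.32 and for Il7r it was 0.23 ± 0.33.

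The fit over both genotypes, a comparison added after the data were seen, gave Cd4 a log2 fold-change of -0.54 ± 0.16 with CS (edgeR unadjusted p = 0.0106, adjusted p = 0.653). The 10 genes gave no call, nor did any other gene tested (background 0%), Cd4 was the 1 of 10 with an unadjusted p under 0.05 against 7.55% of all genes (1067), and DESeq2 called 0 of the 10 and 63 of all genes. Cd4 was also the 1 gene of the 10 whose 4 CS libraries all lay below all 4 controls, at 38.0 ± 4.17 against 56.4 ± 4.56 RPM (SD, n = 4), while 0.948% of all genes had this order. The order of Cd4 held with TMM-scaled counts and with the dependence on coding length divided out. Leaving out any 1 library left the fitted value between -0.61 and -0.48. None of the 10 had all CS libraries above all controls, against 1.84% of all genes. Cd4 is also made by cells other than T cells, dendritic cells and macrophages among them. The 10 dendritic cell markers measured here (Flt3, Zbtb46, Xcr1, Clec9a, Batf3, Siglech, Cd209a, Ccl17, Ccl22 and Itgae) summed to 146 to 239 RPM in the controls and 88.8 to 111 RPM in the CS libraries, with a median log2 fold-change of -0.89 and all 10 below 0. No marker was at 0 throughout, none passed the test, and their part in the value of Cd4 was not tested.

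The genotypes were compared over both exposures. None of the 10 genes passed, whereas 13 of all genes did (edgeR, background 0.0919%). At an unadjusted p under 0.05 there were 0 of 10 against 11.2% of all genes (1584), and DESeq2 called 0 of the 10 and 507 of all genes. The log2 fold-change was below 0 for 9 of the 10, with a median of -0.22 against 0.027 for all genes tested. The 7 epithelial markers summed to 14056 to 50545 RPM in α7E260A:G and 51350 to 79809 RPM in α7G, without overlap, with a median log2 fold-change of -0.69 and 6 of 7 below 0. All 7 endothelial markers were below 0 (median -0.51), with sums of 243 to 612 RPM in α7E260A:G and 559 to 659 RPM in α7G. In the epithelial and in the endothelial list 4 of 7 had an unadjusted p under 0.05. Markers of alveolar macrophages went the other way, with all 12 above 0 (median 0.88) and 9 of 12 with an unadjusted p under 0.05. None of these markers passed the test, and their part in the values of the 10 genes was not tested. Without the female α7E260A:G control the median was -0.39 and 5 of the 10 had an unadjusted p under 0.05, the lowest adjusted p being 0.0722, but in that fit 21.6% of all genes (3053) had an unadjusted p under 0.05 as well.

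Cd8a and Lck were the 2 genes whose 4 α7E260A:G libraries all lay below all 4 α7G libraries, an order that 5.46% of all genes showed. Cd8a was at 31.1 ± 2.88 RPM in α7E260A:G and 41.9 ± 2.83 RPM in α7G (SD, n = 4), with ranges of 28.6 to 34.2 and 37.9 to 44.3 RPM, and its log2 fold-change was -0.33 ± 0.21 (edgeR adjusted p = 0.637). Lck was at 144 ± 15.0 RPM against 178 ± 9.60 RPM, with ranges of 129 to 163 and 170 to 191 RPM (-0.23 ± 0.16, edgeR adjusted p = 0.686). With TMM scaling, and with coding length divided out, neither gene kept this order. None of the 10 had all α7E260A:G libraries above all α7G libraries, against 2.33% of all genes.

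Cd8b1 had a log2 fold-change of -0.39 ± 0.29 between the genotypes. In RPM it was lower in α7E260A:G in 4 of 4 pairs of the same sex and exposure. So were Cd3e (-0.33 ± 0.25), Cd5 (-0.28 ± 0.19) and Zap70 (-0.22 ± 0.19). The share of all genes with this order was not computed. Some gaps were small, with ratios of 0.997 for Zap70 in CS males, 0.986 for Cd3e in control females and 0.976 for Cd5 in control males. With coding length divided out, Cd5 was higher in α7E260A:G in the male (41.84 against 41.77 RPM) and female controls (42.7 against 41.6 RPM). Zap70 was then higher in the female controls (49.1 against 40.9 RPM). Cd3d (-0.22 ± 0.44) and Cd3g (-0.08 ± 0.41) were lower in 3 of 4 pairs, the exception being the female controls. Il7r was at -0.07 ± 0.16. Cd4 was the 1 gene above 0, at 0.08 ± 0.16, and at -0.0017 with scaling by library size. The share of Cd4 relative to Cd8a, in RPM, was 1.54 ± 0.463 in α7E260A:G and 1.12 ± 0.213 in α7G (SD, n = 4), with overlapping ranges. This share was not recomputed with coding length divided out.

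The 10 genes span coding lengths of 519 (Cd3d) to 1991 bases (Zap70), and the libraries differed in how level depended on that length. Over all genes kept, the slope of log2 RPM on log2 coding length, after each gene's mean was subtracted, ran from -0.260 in the female α7E260A:G control to 0.362 in the male α7E260A:G control. Over the 10 genes it ran from -0.334 to 0.574 in the same 2 libraries. The α7G controls had slopes over all genes of 0.173 (male) and 0.0556 (female), and the α7G CS libraries -0.196 and -0.173. The log2 fold-changes of the 10 genes for CS in α7G had r of -0.796 with log2 coding length and -0.923 with log2 mRNA length, a description over 10 genes. With the coding length offset described next these were -0.319 and -0.826.

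With the dependence of each library on coding length taken into the fit as an offset, the log2 fold-change for CS in α7G was 0.41 in place of 0.88 for Cd3d, 0.30 in place of 0.75 for Cd3g, 0.02 in place of 0.47 for Cd3e and 0.13 in place of 0.52 for Cd8b1. Cd4 stayed at -0.38 and Il7r at -0.28, and Cd8a went from 0.08 to -0.25. In the 2 α7E260A:G controls, Cd3d at 67.5 and 239 RPM became 89.4 and 217 RPM once length was divided out, so that most of that gap was still there. For CS in α7E260A:G, Cd4 had -0.80 with the offset and Cd5 -0.56, and none of the 10 passed in either genotype. The genotype values moved by little, from -0.33 to -0.30 for Cd8a and from -0.39 to -0.38 for Cd8b1.

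**Figure D5:**
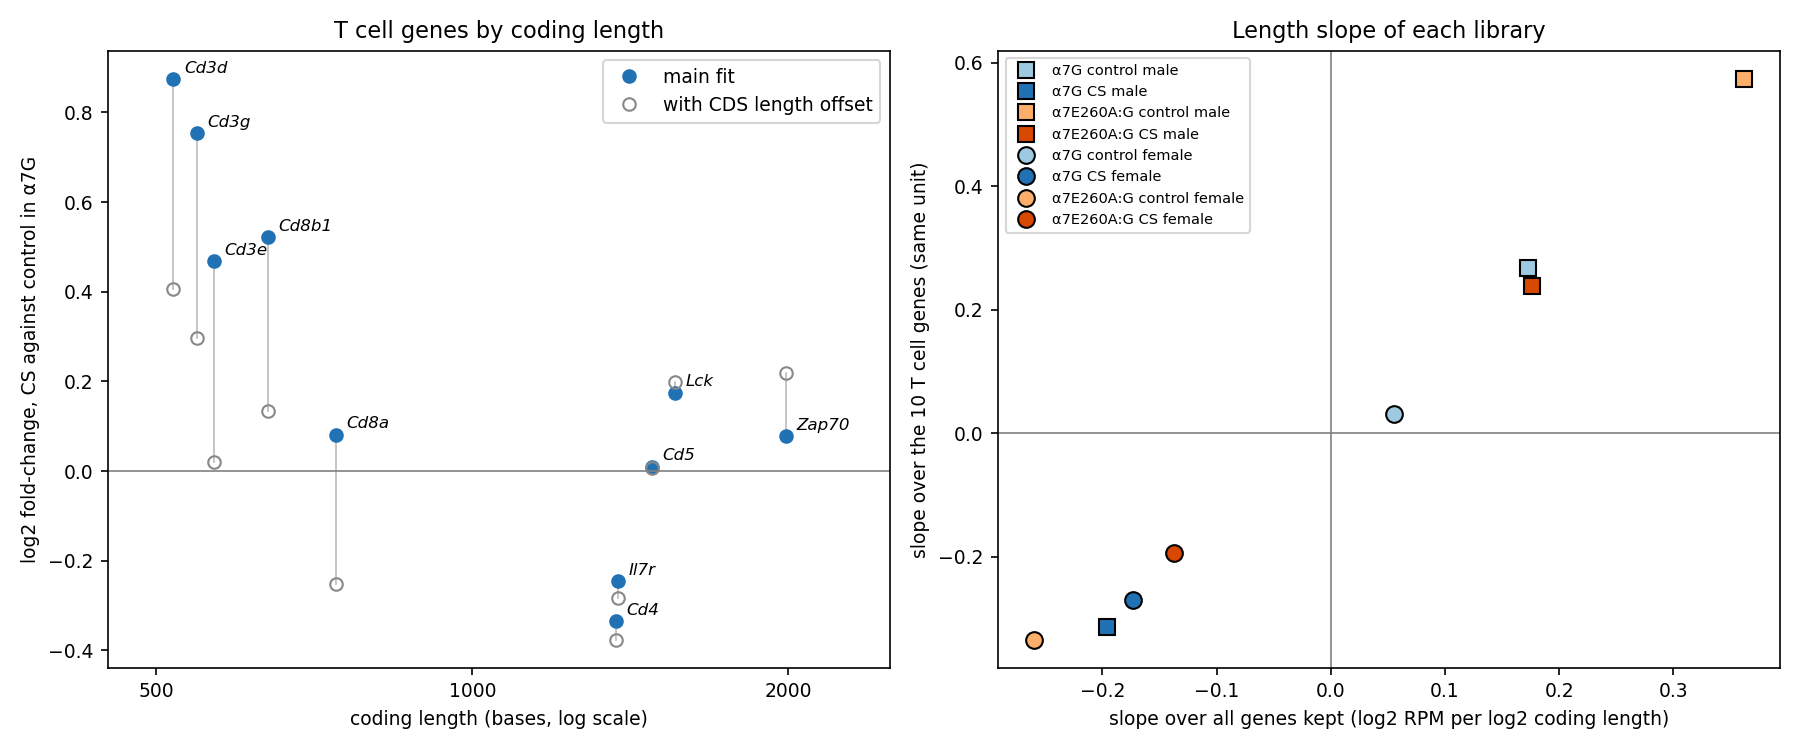
Left, log2 fold-change for CS in α7G (vertical) against coding length in bases (log axis) for the 10 genes, filled without and open with the coding length offset, which takes Cd3d from 0.88 to 0.41. Right, slope of level on coding length in each library, over all genes kept (horizontal) and over the 10 genes (vertical), with the male and female α7E260A:G controls at the extremes.

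The other genes of the pathway were described by lists. The receptor chains and partners on the membrane (Cd247, Trac, Trbc1, Trbc2, Trat1, Pdcd1 and Cd6, with 7 of 12 listed symbols found) had a median log2 fold-change of 0.33 for CS in α7G and -0.36 in α7E260A:G, and -0.21 between the genotypes. None of the 7 passed in any comparison. Trac, the constant gene of the alpha chain, was at 81.2 and 91.9 RPM in the male and female α7G controls and at 94.4 and 104 RPM after CS. In α7E260A:G it was at 60.3 and 98.2 RPM and then at 56.9 and 72.2 RPM, the female control again being the highest of its genotype. With coding length divided out, the direction of Trac in α7G was the other one. It was then at 96.6 and 93.6 RPM in the controls and at 73.25 and 86.4 RPM after CS. In α7E260A:G it was then at 86.0 and 82.6 RPM in the controls, the male being the higher, and at 66.4 and 64.7 RPM after CS. The medians of this list are from the fit without the length offset. The beta chain constant genes Trbc1 and Trbc2 are near copies between which the counting could split or drop reads, so their levels are uncertain. They lay at 26.4 to 44.8 and 51.2 to 111 RPM. Cd247, the zeta chain, lay at 31.3 to 46.5 RPM.

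The proximal kinases, adaptors and phosphatases were tested for 28 genes and the downstream signalling genes for 20, and none passed in any comparison. Their medians for CS were -0.20 and -0.23 in α7G and -0.23 and -0.20 in α7E260A:G. The proximal genes had medians closer to 0 between the genotypes (0.008, downstream -0.011) than for CS. The adhesion receptor gene Cd2 was at 310 to 608 RPM and was higher after CS in all 4 pairs of the same genotype and sex, with 310 and 352 RPM in the α7G controls, 473 and 481 RPM after CS, 326 and 539 RPM in the α7E260A:G controls and 432 and 608 RPM after CS (0.66 ± 0.40 and 0.17 ± 0.39, neither passing). Lat, the adaptor that ZAP-70 phosphorylates, lay at 73.0 to 103 RPM. Ptpn6 (437 to 712 RPM) and Nfkb1 (130 to 332 RPM) were also high, and both are used in other leukocytes.

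Partners of the IL-7 receptor and of the shared gamma chain (12 genes) had medians of -0.13 and -0.39 for CS in α7G and α7E260A:G, and none passed. Il2rg, the gamma chain with which Il7r pairs, was at 62.3 to 103 RPM, and Jak3, its kinase, at 36.3 to 97.2 RPM. Jak1 was at 301 to 671 RPM and Il2rb at 106 to 221 RPM. Costimulatory and checkpoint receptors (15 genes) had medians of -0.0086 and -0.36 for CS, with Slamf6 at 48.6 to 73.6 RPM and Havcr2 at 31.5 to 71.3 RPM. T cell transcription factors and homing genes (20) had a median of -0.33 between the genotypes, 16 of 20 below 0, with Ets1 at 90.3 to 308 RPM. Antigen-presenting molecules and ligands of the costimulatory receptors (9 genes) had medians of 0.14 for CS in α7G and -0.54 in α7E260A:G. Among these B2m was at 2074 to 5562 RPM and H2-Aa at 697 to 3000 RPM. None of these genes passed the test in any comparison.

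Markers of other cells that use some of the 10 genes were measured beside them. Of 12 NK cell markers all were measured, none at 0 throughout, and their sum was 1299 to 2140 RPM in α7G controls, 1681 to 1780 after CS, 1069 to 2450 in α7E260A:G controls and 864 to 1292 after CS. Over both genotypes all 12 had a log2 fold-change with CS below 0, with a median of -0.33. The female α7E260A:G control, which had the highest Cd3d and Cd3g, also had the highest NK sum and the highest Ncr1, a defining NK receptor gene, at 170 RPM against 70.8 to 119 RPM elsewhere. The 10 group 2 innate lymphoid cell markers, of cells that also carry the IL-7 receptor, summed to 62.4 to 96.1 RPM. The 9 B cell markers summed to 1589 to 2477 RPM in α7G and 999 to 1257 RPM in α7E260A:G, without overlap. Between the genotypes all 9 had a log2 fold-change below 0 with a median of -0.95, and 7 of 9 had an unadjusted p under 0.05 in edgeR. The 12 alveolar macrophage markers summed to 11609 to 18512 RPM in α7G and 26735 to 41837 RPM in α7E260A:G, also without overlap. Between the genotypes all 12 were above 0 with a median of 0.88, and 9 of 12 had an unadjusted p under 0.05. Of all genes 11.2% had such a p in this comparison, and none of these markers passed. Neutrophil markers (7) summed to 917 to 3163 RPM. The part of these cells in the values of the 10 genes was not tested.

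The level of Lck was also taken relative to Ptprc, and this ratio depends on the level of Ptprc itself. The log2 fold-change of Ptprc for CS was -0.94 ± 0.33 in α7G (edgeR adjusted p = 0.646) and -0.36 ± 0.32 in α7E260A:G (not passing). In RPM, Lck was 8.90% and 12.9% of Ptprc in the male and female α7G controls and 21.1% and 24.8% after CS, and 8.78% and 15.5% in the α7E260A:G controls and 9.57% and 15.2% after CS. The α7G CS libraries thus had the highest ratio, while Lck itself had overlapping RPM with and without CS in this genotype. Ptprc was at 1935 and 1387 RPM in the α7G controls and at 804 and 771 RPM after CS. With coding length divided out it was at 1444.5 and 1252 RPM and then at 1037 and 971 RPM, a smaller gap. Lck was then at 153 and 167 RPM in the α7G controls and at 171 and 196 RPM after CS, without overlap. The ratios were not recomputed on that scale. Other pan-leukocyte markers did not follow Ptprc in the fit without the length offset, since 7 of the 8 had a log2 fold-change above 0 for CS in α7G.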

How the data were processed

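Lung libraries of 8 samples were compared in 4 groups of 2, grouped by the labels' genotype, exposure and sex. The authors aligned reads with STAR to mm9 (NCBIM37) and counted them on GENCODE M1 coding sequence with htseq-count, and deposited raw counts without normalization. Versions and the strand setting are not given in the sources used here. All 22756 genes matched GENCODE M1, which gave positions and coding lengths.

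RPM were computed from total counts. The tests on counts were those of edgeR 4.0.16 (glmQLFit and glmQLFTest after TMM scaling, with limma 3.58.1 under R 4.3.3, filterByExpr with a minimum count of 10, Benjamini-Hochberg over all 14140 genes kept, threshold 0.05), in a model of the 4 groups without sex, which was checked on simulated data. The common dispersion was 0.109. Each SE was the log2 fold-change divided by the square root of F. The length offset was a lowess fit (span 0.667) of each library on log2 coding length. Alternatives were DESeq2 1.42.0, library size scaling, no filter (17542 genes), a mean count of 200 (7189 genes), sex as a block, length offsets, a fit of 1 genotype, and leaving out each library. Tables and figures were made with matplotlib 3.10.9, scipy 1.17.1, pandas 2.3.3 and numpy 2.4.6 under Python 3.11.15.

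Total counts of 8020726 to 10944100 per library put a floor of 3 counts at 0.274 to 0.374 RPM. All 10 genes are named, as are the listed genes that passed (none did), the 2 of each pathway list with the highest mean RPM, a fixed set (Ptprc, Cd247, Cd2, Lat, Trac, Trbc1, Trbc2, Il2rg, Jak3, Ncr1) and the 5 genes most like the mean of the 10. Genes given by range come under this rule, and some that it names are not reported here. The 10 genes and the lists were chosen with earlier results of these data known.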

Additional observations from a re-analysis of the deposited data

Results flagged for a closer look

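In sets of 4 libraries, by genotype or by exposure, 4 of 40 checks over the 10 genes found a library far from the other 3 by Dixon's criterion, which chance gives in about 1 of 20 sets. The female α7G CS library had Cd3e at 102 RPM, the highest of the 4 α7G libraries, and Zap70 at 54.4 RPM, the highest of the 4 CS libraries. Among the 4 controls, the male α7E260A:G library had the lowest Cd3e, 49.2 RPM, and the female α7E260A:G library had the lowest Cd5, 34.3 RPM. These checks used RPM without regard to coding length. With coding length divided out, Cd5 lay at 41.6 to 42.7 RPM in the 4 controls, and the female α7E260A:G library was the highest. Cd3e was then at 63.4 RPM in the male and 65.5 RPM in the female α7E260A:G control. In the female α7G CS library Cd3e (89.1 RPM) and Zap70 (58.5 RPM) stayed the highest of their sets.

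Cd3e was higher with CS in both sexes of α7G and lower with CS in both sexes of α7E260A:G. Averaged over the sexes, these log2 ratios differed by -0.41 (α7E260A:G minus α7G). This was seen from the signs, and the difference tested in the edgeR fit was -0.67 ± 0.50 (adjusted p = 1.00). In α7E260A:G males the counts of Cd3e were 404 and 393, a ratio in RPM of 0.995, so the sign there rests on a small gap. The signs in α7G also depend on the scale. With coding length divided out, Cd3e was at 75.9 RPM in the male α7G control and 59.7 RPM after CS. In α7G females it was then at 70.9 and 89.1 RPM.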

How the results depend on the processing

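None of the 10 genes passed in any fit tried, and the direction of 863 of 870 recomputed values was the same or changed with both values within 1 SE of 0 (62 values). For CS in α7G, Cd8a was -0.25 with the CDS length offset and -0.26 with sex as a replicate block added. Without the female α7E260A:G control, CS in α7E260A:G gave Cd3d 0.79, Cd3g 0.71 and Cd8b1 0.65, and without the male one -1.41, -1.22 and -0.56. The difference of the CS response gave Cd8b1 0.14 and -1.08, and CS over both genotypes gave Cd3d 0.82 and -0.27, without the female and the male one. The cause was not tested.

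Counts of all genes passing depended on the fit. For CS in α7G, DESeq2 called 18 and the fit of 4 libraries 904. For CS in α7E260A:G, DESeq2 called 34, no filter 3, the CDS length offset 2 without and 2 with the block, the mRNA length offset 4 and 2, and 0 passed with library size scaling, the mean count filter, the block alone or 4 libraries. Leaving out 1 library gave 0 to 139. For the difference of the CS response, DESeq2 called 7 and the CDS length offset 1, and leaving out 1 library gave 0 to 92. Between genotypes, DESeq2 called 507, no filter 69, the mean count filter 6, the replicate block 43, the CDS length offset 491 without and 704 with the block, the mRNA length offset 549 and 748, and leaving out 1 library 1 to 639. For CS over both genotypes, DESeq2 called 63, no filter 1, the CDS length offset 3 and, with the block, 4, the mRNA length offset 3 and 1, and leaving out 1 library 0 to 98.

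Genes of the 10 whose genotypes did not overlap were 0 with TMM scaling (7.45% of all genes, in either direction) or coding length divided out (10.3%), and 2 to 4 when 1 library was left out (9.64% to 13%), with 4 without the male α7G control (13%). For CS they were 1 to 2 (3.7% to 12.5%), with 2 without the female α7G CS library (4.34%). The mRNA length offsets, the division by coding length and the comparison over both genotypes were chosen after seeing the data.

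Same-numbered libraries share sex, and whether they share anything else is not given in the sources used here. The correlation of their deviations between groups ran from -0.0151 to 0.497 (2 libraries per group), the highest being between α7E260A:G control and CS. Sex was left out of the main model, so the spread within groups includes any difference between the sexes. The block for sex changed no call among the 10 genes.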
